A study of Homo sapiens with 8 samples.

Results

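The alpha and beta tubulin genes measured here were TUBA1A, TUBA1C, TUBA4A, TUBB, TUBB2A, TUBB3, TUBB4A, TUBB4B and TUBB6. All probe sets that the platform's annotation gives to 1 of these 9 genes and no other gene were used, 26 of 44988 single-gene probe sets, from 9 of 18132 genes. The study treated AGS cells, an established line from a human gastric adenocarcinoma, and measured mRNA on Affymetrix arrays, 1 array per sample. One set of 4 arrays holds podofilox-treated cells (3.4 nM, 72 hours) and the other 4 hold control cells. Podofilox is podophyllotoxin, a plant lignan that binds tubulin at the colchicine site and blocks microtubule assembly. All samples share the 1 cell line and serum-containing medium with antibiotics, and the labels do not say whether control cells received a solvent. They also do not say whether the replicates were separate cultures, so each p-value rests on array-to-array spread that may be only technical. The arrays measure mRNA of whole cultures, so a changed number of cells of one kind and a changed amount of RNA per cell cannot be told apart.

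Microtubules are built from dimers of alpha and beta tubulin, and each protein is made from several genes, called isotypes, that differ mainly in the acidic tail of the protein. Cells adjust tubulin mRNA to the amount of free dimer. When drugs of the colchicine class take microtubules apart, the adaptor TTC5 recognises new tubulin chains at the ribosome and, through SCAPER and the CCR4-NOT deadenylase, has the mRNA under translation degraded. This response is called tubulin autoregulation, and the comparison of podofilox with control is read here isotype by isotype with that in view.

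After podofilox, TUBB, the main beta tubulin of most cells, was lower on all 6 of its probe sets, 4 of them past the test. TUBA4A, an alpha tubulin whose gene does not encode the final tyrosine of the tail, was higher on both of its probe sets, and TUBB2A, a beta tubulin abundant in neurons, was higher on both as well. The remaining genes, TUBA1A, TUBA1C, TUBB3, TUBB4A, TUBB4B and TUBB6, did not pass the test on any probe set. Each gene was represented by its brightest probe set in the test over genes, and genes are described as higher or lower past the test (rose, fell) where limma's Benjamini-Hochberg adjusted p over all 18132 genes was under 0.05. By this test 2 of the 9 genes rose, beside 8.55% of all genes, and 1 fell, beside 12.5% of all genes, so 3 of 9 passed in either direction, beside 21.0%. The median difference of the 9 genes was 0.017 on the log2 scale, and that of all genes was 0.0069. Over the 26 probe sets, with p-values adjusted over all 44988, 3 rose and 4 fell, beside 7.83% and 10.2% of all single-gene probe sets, so 7 of 26 passed in either direction, beside 18.0%. These counts are small, and their shares are not read as a property of the group. The groups did not overlap on 11 of the 26 probe sets, beside 24.2% of all.

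**Figure D1:**
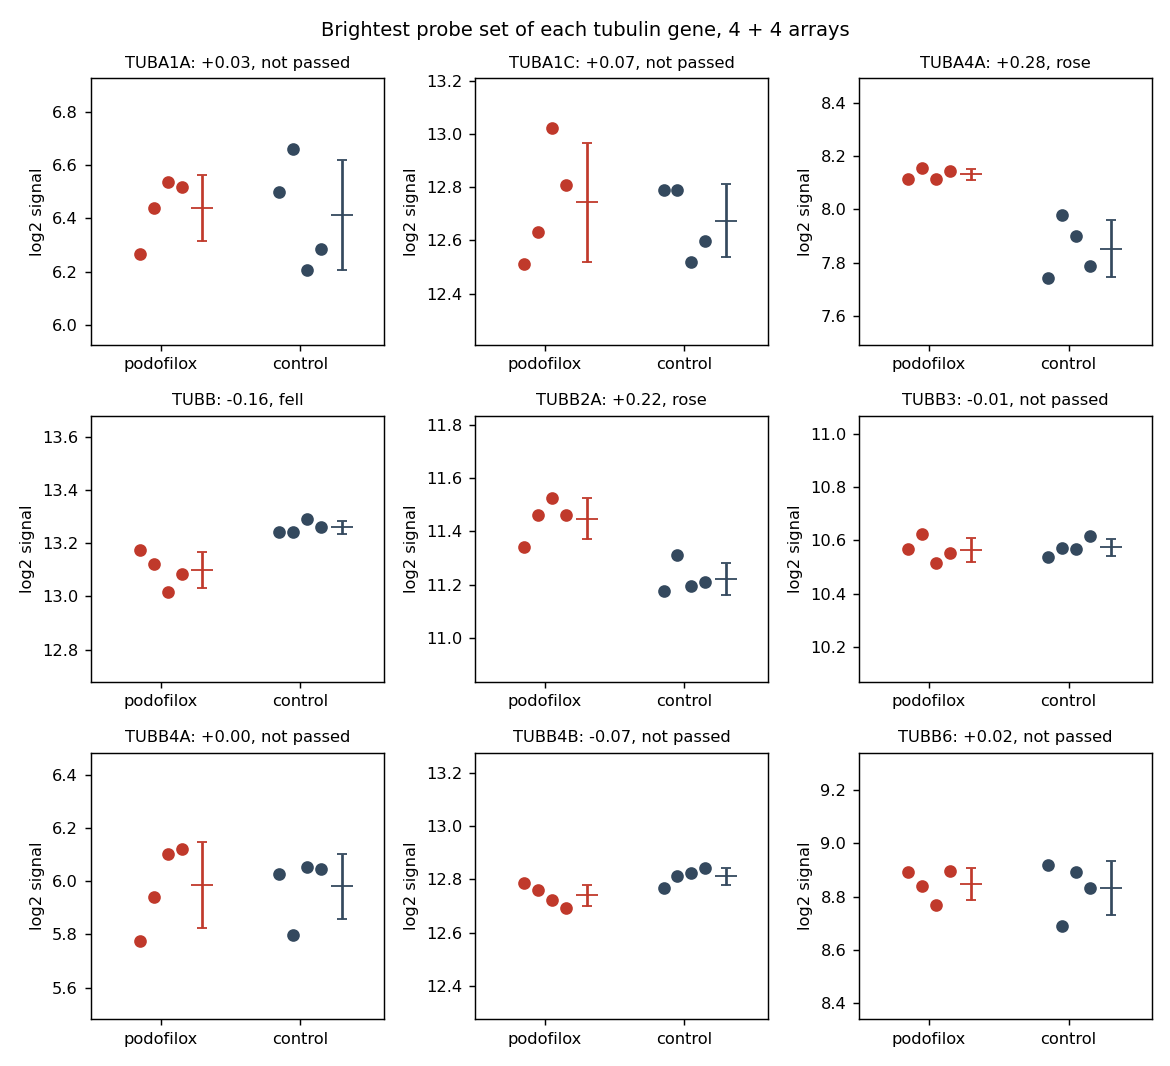
Log2 signal of the brightest probe set of each of the 9 tubulin genes on the 4 podofilox arrays (left, red) and the 4 control arrays (right, dark blue), with mean and SD beside the points and an axis of 1 log2 unit in each panel. TUBA4A and TUBB2A lay higher and TUBB lower on every podofilox array than on any control array, and the other 6 genes overlapped.

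A log2 difference is podofilox minus control throughout, and errors of differences are limma's moderated standard errors (SE). Adjusted p-values and intervals of a gene's brightest probe set come from the test over genes, and those of its other probe sets from the test over probe sets. Signals of different probe sets depend on their probes as well as on the mRNA, so the isotypes are not ranked by level. Tubulin genes resemble each other closely in their coding sequence. Of the 26 probe sets, 21 carry the manufacturer's suffix _x_at or _s_at for probes shared between transcripts, so a value credited to 1 isotype can hold signal of another.

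Among the alpha tubulins, TUBA4A had signals of 8.11, 8.16, 8.12 and 8.14 with podofilox, against 7.74, 7.98, 7.90 and 7.79 in control cells. The podofilox arrays lay close together and all above the highest control array. TUBA4A averaged 8.13 ± 0.02 with podofilox and 7.85 ± 0.11 in control cells (SD, n = 4 each), a rise of 0.28 (SE 0.06, 95% interval 0.16 to 0.40, adjusted p = 0.00565), or 1.21-fold. This probe set is of the plain kind designed for 1 gene. The other TUBA4A probe set, of the _x_at kind, had 7.78, 7.96, 7.76 and 7.84 with podofilox, against 7.48, 7.65, 7.61 and 7.50 in control cells, and rose by 0.27 (SE 0.06, adjusted p = 0.0106). On the brightest probe set, array numbers 1 and 2 alone gave a difference of 0.27 and numbers 3 and 4 gave 0.29. Their adjusted p was 0.0702 and 0.0539 by limma. Here and below, such a difference rests on 2 arrays a group, but its error was estimated from all 8 arrays. The TUBA4A rise stayed past the test on leaving out each array in turn, with an adjusted p of at most 0.0227.

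Among the beta tubulins, TUBB2A had signals of 11.34, 11.46, 11.53 and 11.46 with podofilox, against 11.17, 11.31, 11.20 and 11.21 in control cells. The groups did not overlap, but the lowest podofilox array, 11.34, lay close to the highest control array, 11.31. TUBB2A averaged 11.45 ± 0.08 with podofilox and 11.22 ± 0.06 in control cells (SD, n = 4 each), a rise of 0.22 (SE 0.05, 95% interval 0.11 to 0.34, adjusted p = 0.0125), or 1.17-fold. Its other probe set was at 11.10 ± 0.10 and 10.90 ± 0.08 (SD, n = 4 each), with a difference of 0.20 that fell just short of the test (adjusted p = 0.0503). On the brightest probe set, array numbers 1 and 2 alone gave 0.16, not past the test (adjusted p = 0.169), and numbers 3 and 4 gave 0.29. Without each array in turn the rise ran from 0.20 to 0.26 and its adjusted p over genes stayed at or under 0.0405. Both TUBB2A probe sets are of a kind that can bind several transcripts.

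TUBB had signals of 13.18, 13.12, 13.02 and 13.09 with podofilox, against 13.24, 13.24, 13.29 and 13.26 in control cells on its brightest probe set. Every podofilox array lay below every control array. TUBB averaged 13.10 ± 0.07 with podofilox and 13.26 ± 0.02 in control cells (SD, n = 4 each), a fall with a difference of -0.16 (SE 0.05, 95% interval -0.26 to -0.06, adjusted p = 0.0305), or 1.12-fold lower. This call was close to the threshold. Omitting 1 array at a time gave adjusted p-values between 0.0210 and 0.0812, under the threshold without podofilox replicate 1 or control replicate 2 and above it without each of the other 6 arrays. Among array numbers 1 and 2 the difference came to -0.09, and among numbers 3 and 4 to -0.23.

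Of the 5 dimmer TUBB probe sets, 3 fell and 2 did not pass. The one at a mean of 12.74 ± 0.03 with podofilox and 12.93 ± 0.02 in control cells differed by -0.19 (SE 0.04, adjusted p = 0.0119). The next, at 12.70 ± 0.03 with podofilox and 12.89 ± 0.02 in control cells, differed by -0.19 (SE 0.04, adjusted p = 0.0105). Both stayed past the test without any single array, with adjusted p of at most 0.0454 and 0.0348. The next, at 12.68 ± 0.02 and 12.83 ± 0.02 (SD, n = 4 each in this paragraph), differed by -0.16 (adjusted p = 0.0245), and this ended without podofilox replicate 4 or control replicate 4 (adjusted p = 0.0620 and 0.0807). The remaining pair of TUBB probe sets, both under 12, differed by -0.07 (adjusted p = 0.337) and -0.12 (adjusted p = 0.0912) and did not pass. Podofilox replicate 3 was the one array that overlapped control arrays on the first of this pair, at 11.73 against 11.68 to 11.76. All 6 TUBB probe sets can bind more than 1 transcript, and probe sets of 1 gene share the same RNA, so their number adds no replicates.

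**Figure D2:**
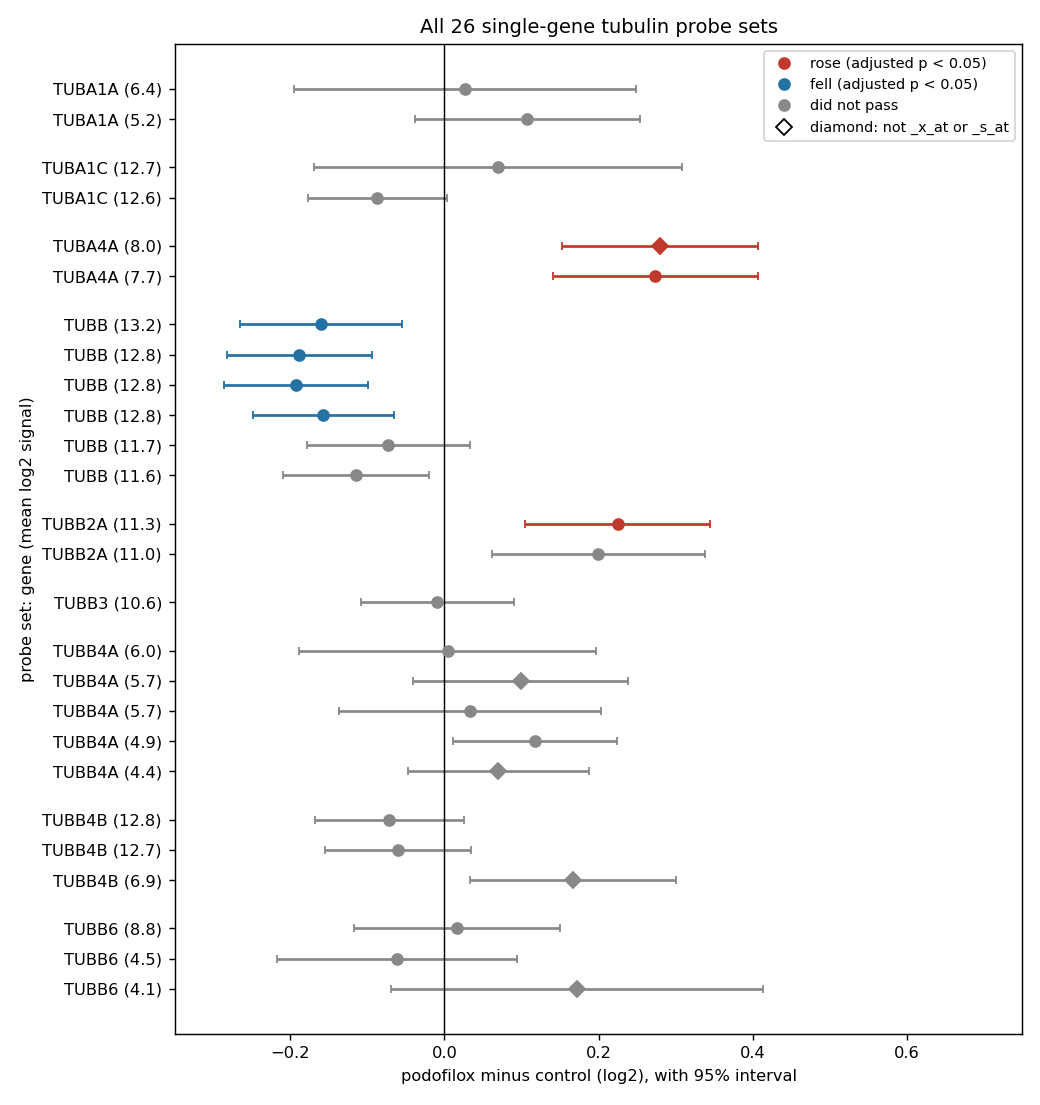
Difference of each of the 26 single-gene tubulin probe sets (podofilox minus control, log2) with its 95% interval from limma, grouped by gene and labelled with the mean log2 signal. All 6 TUBB probe sets lie below 0, and both TUBA4A and both TUBB2A probe sets lie above 0. Diamonds are the 5 probe sets that are not of the _x_at or _s_at kind.

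The genes past the test are shown here by the 250 bases before their RefSeq transcription starts (assembly GRCh38.p14), so that the parts upstream of an isotype that fell and of isotypes that rose can be set side by side. Each is printed 5′ to 3′ on the gene's strand, in lower case. Capitals mark motifs found on either strand. In TUBA4A the TATA motif is followed directly by the last GC box, with no base in common. The CCAAT box was searched as CCAAT. The TATA motif was searched as TATAA. The E-box, a site of MYC-type factors, was searched as CACGTG. The GC box, a site of SP1-type factors, was searched as GGGCGG. The cAMP response element was searched as TGACGTCA. TUBA4A lies at chr2:219253919-219254168 on the minus strand and TUBB2A at chr6:3157545-3157794 on the minus strand. The annotation gives TUBB 2 starts, with windows at chr6:30720102-30720351 and chr6:30721388-30721637 on the plus strand.
TUBA4A: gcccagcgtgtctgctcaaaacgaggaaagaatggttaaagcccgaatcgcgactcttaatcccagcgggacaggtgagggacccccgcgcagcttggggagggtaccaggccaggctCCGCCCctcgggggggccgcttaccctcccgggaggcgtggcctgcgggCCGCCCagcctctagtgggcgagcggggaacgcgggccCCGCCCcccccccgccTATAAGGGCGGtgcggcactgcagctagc
TUBB2A: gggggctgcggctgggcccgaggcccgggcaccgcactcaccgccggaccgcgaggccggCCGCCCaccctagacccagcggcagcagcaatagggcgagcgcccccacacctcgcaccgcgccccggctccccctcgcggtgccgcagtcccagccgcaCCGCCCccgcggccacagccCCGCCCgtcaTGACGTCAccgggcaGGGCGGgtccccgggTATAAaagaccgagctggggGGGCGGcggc
TUBB, first start: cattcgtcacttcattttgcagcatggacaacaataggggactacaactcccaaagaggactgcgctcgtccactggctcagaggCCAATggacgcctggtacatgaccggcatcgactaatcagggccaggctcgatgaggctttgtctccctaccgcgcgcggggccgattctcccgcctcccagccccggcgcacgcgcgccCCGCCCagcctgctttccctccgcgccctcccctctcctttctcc
TUBB, second start: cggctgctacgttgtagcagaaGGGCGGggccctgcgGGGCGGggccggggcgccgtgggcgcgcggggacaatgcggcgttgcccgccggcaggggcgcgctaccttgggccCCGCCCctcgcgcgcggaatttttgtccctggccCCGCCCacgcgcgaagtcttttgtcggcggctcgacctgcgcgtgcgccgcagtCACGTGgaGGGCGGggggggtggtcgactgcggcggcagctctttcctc

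The windows of the pair that rose each held a TATA motif, which 18.9% of all 35116 promoter windows of this length held, and neither TUBB window did. Windows of TUBA1C, TUBB3 and TUBB4B, genes that did not pass the test, also held this motif. TUBB2A also held the cAMP response element, found in 1.65% of all windows and in 1 of the 9 tubulin genes. The first TUBB window held 1 CCAAT box, found in 32.0% of all windows, and the second held an E-box, found in 6.34%. Among the 9 genes, with 15 windows in all, a CCAAT box was found in 9 windows of 7 genes, a TATA motif in 5 windows of 5 genes, an E-box in 3 windows of 3 genes and a GC box in 8 windows of 7 genes. The GC box was found in 42.6% of all windows. A match describes the letters in these windows only.

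TUBA1C, a widely expressed alpha tubulin, gave different pictures on its 2 probe sets. On the brightest it had signals of 12.51, 12.63, 13.02 and 12.81 with podofilox, against 12.79, 12.79, 12.52 and 12.60 in control cells. The groups overlapped widely, with podofilox replicate 3 the highest and podofilox replicate 1 the lowest of all 8 arrays. The difference of 0.07 (SE 0.11, 95% interval -0.17 to 0.31) did not pass, but array numbers 1 and 2 alone gave -0.22 and numbers 3 and 4 gave 0.36 (adjusted p = 0.0240 in the second pair). On the other probe set the arrays lay close together, at 12.59, 12.56, 12.57 and 12.56 with podofilox, against 12.68, 12.66, 12.62 and 12.67 in control cells. All podofilox arrays were below all control arrays there, with a difference of -0.09 (SE 0.04, adjusted p = 0.175) that did not pass, and of -0.10 and -0.08 within the same pairs of array numbers. With a variance trend and robust estimation that probe set passed the test (adjusted p = 0.0175).

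TUBA1A, the alpha tubulin best known from developing neurons, showed the same arrangement on its brightest probe set, which is of the _x_at kind. It had signals of 6.26, 6.44, 6.54 and 6.52 with podofilox, against 6.50, 6.66, 6.21 and 6.28 in control cells. Podofilox arrays were lower than control arrays among numbers 1 and 2 (-0.23) and higher among numbers 3 and 4 (0.28), and the overall difference was 0.03 (SE 0.10, adjusted p = 0.885). Its dimmer probe set did not show this, with 0.19 and 0.03 in these pairs and 0.11 (SE 0.07, adjusted p = 0.304) overall. EPCAM, an epithelial surface protein used here as a marker of the cells, had -0.07 and 0.41 in the same pairs, TBCA -0.01 and 0.27 and TOB1 -0.01 and 0.38. These genes were picked for this pattern after their values were seen. Other listed genes lacked it, among them CLDN4 with 0.52 and 0.49 and BTG1 with 0.48 and 0.53. How common the pattern was over all genes was not counted. The difference between the pairs of array numbers was not tested, and the labels name no batch.

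**Figure D3:**
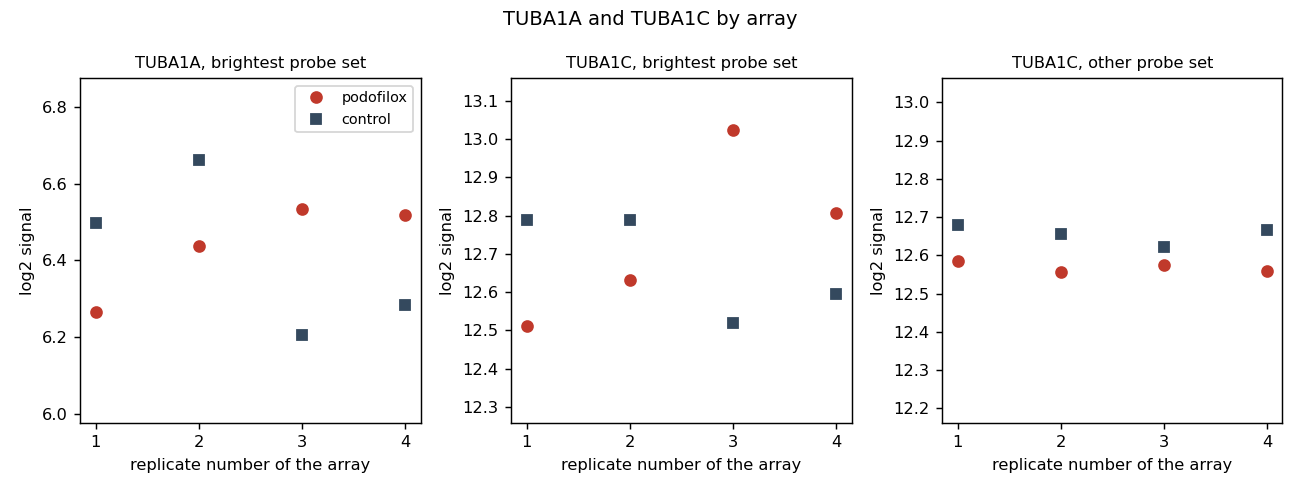
Log2 signal by replicate number for the brightest probe sets of TUBA1A and TUBA1C and for the other TUBA1C probe set, with podofilox as circles and control as squares and an axis of 0.9 log2 units. On the brightest probe sets podofilox lies below control at numbers 1 and 2 and above it at 3 and 4, while on the other TUBA1C probe set it lies below at all 4.

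TUBB4B, the beta tubulin found alongside TUBB in most tissues, had signals of 12.79, 12.76, 12.72 and 12.69 with podofilox, against 12.77, 12.81, 12.82 and 12.84 in control cells. The groups overlapped through podofilox replicate 1 and control replicate 1. The difference was -0.07 (SE 0.04, 95% interval -0.16 to 0.02, adjusted p = 0.259), and the second bright probe set gave -0.06 (adjusted p = 0.379). The remaining probe set, dim and of the plain kind, lay on the other side of 0. It ran from 6.88 to 7.09 with podofilox, against 6.74 to 6.92 in control cells, a difference of 0.17 (SE 0.06, adjusted p = 0.0837) that did not pass as fitted and passed under 7 of 21 other settings.

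TUBB3, the class III beta tubulin used as a marker of neurons, has 1 probe set here, of the _x_at kind. Its signals were 10.57, 10.62, 10.51 and 10.55 with podofilox, against 10.54, 10.57, 10.57 and 10.62 in control cells. The groups lay over each other, and the difference of -0.0090 had a 95% interval of -0.10 to 0.08, which leaves room for a change of either sign up to about that size. TUBB6, the class V beta tubulin, was at 8.89, 8.84, 8.77 and 8.90 with podofilox, against 8.92, 8.69, 8.89 and 8.83 in control cells, a difference of 0.02 (SE 0.06, adjusted p = 0.879). Its dimmer probe sets, at means of 4.43 ± 0.13 and 4.23 ± 0.22 with podofilox, against 4.49 ± 0.08 and 4.06 ± 0.14 in control cells (SD, n = 4 each), differed by -0.06 and 0.17 and did not pass.

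TUBB4A, a beta tubulin mostly of the brain, was dim on all 5 of its probe sets, with means over the 8 arrays of 4.42 to 5.98, below the array medians of 6.39 to 6.45. All 5 differences were above 0, at 0.0046 to 0.12, and 0 of them passed (adjusted p of 0.122 to 0.979). Before adjustment 1 of the 5 was under 0.05, beside 14070 of all 44988 single-gene probe sets of any brightness. The probe set with a difference of 0.12 had 4.99, 4.92, 4.89 and 5.00 with podofilox, against 4.88, 4.79, 4.87 and 4.78 in control cells. Those groups did not overlap, but the lowest podofilox array, 4.89, lay next to the highest control array, 4.88. The table has no detection calls, so it does not say whether TUBB4A mRNA was above background.

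Bright and dim tubulin probe sets differed in their direction. Of the 13 with a mean above 10, 10 were lower with podofilox and 3 were higher, with a median of -0.07. All 6 TUBB probe sets were among these 10. Of all 44988 single-gene probe sets 21504 were lower. Of the 10 with a mean below 7, 9 were higher and 1 was lower, with a median of 0.08. All 5 TUBB4A probe sets were among these 9. Of the 10 dim probe sets 0 passed the test, with 2 at an unadjusted p under 0.05, beside 14070 of all 44988 of any brightness. Calls were fewer among dim probe sets in general. Of all single-gene probe sets with means of up to 5, 2.73% rose and 1.53% fell, and from 5 to 7 6.03% rose and 7.86% fell. Probe sets of 1 gene share the same RNA, so these are not counts of separate genes. Over all single-gene probe sets the median difference was 0.027 for means of up to 5, 0.017 from 5 to 7, -0.025 from 7 to 9, -0.018 from 9 to 11, -0.015 from 11 to 12, -0.0011 from 12 to 13 and 0.0038 above 13. The part of brightness in the tubulin differences was not tested.

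**Figure D4:**
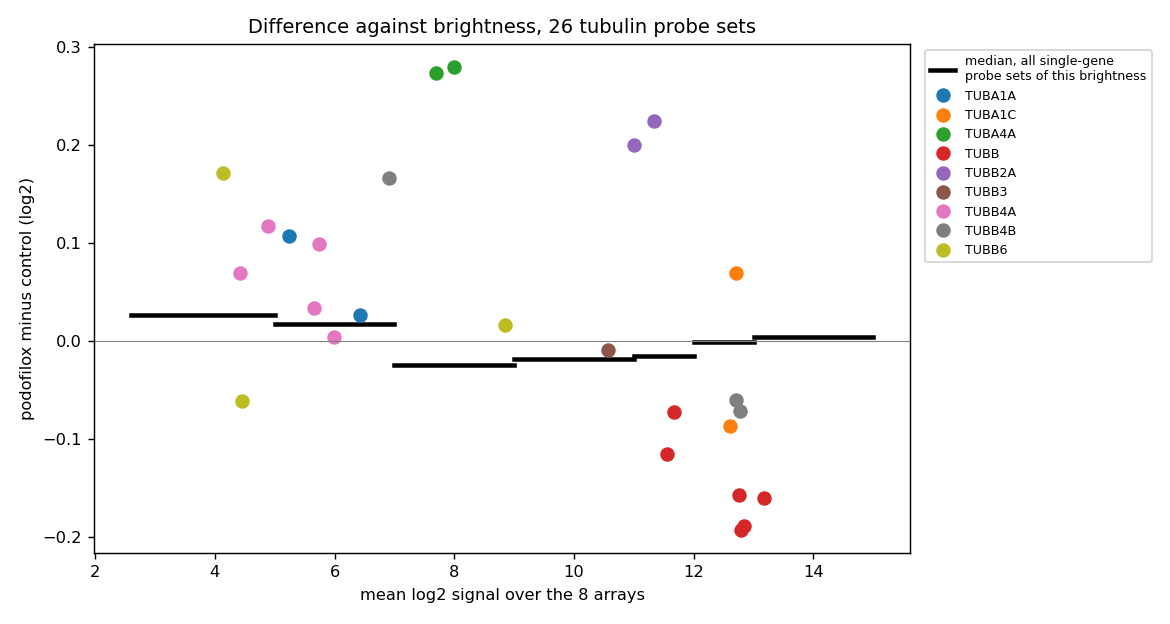
Difference (podofilox minus control, log2) of the 26 tubulin probe sets against their mean log2 signal over the 8 arrays, coloured by gene, with black bars for the median of all single-gene probe sets in 7 ranges of brightness. The bars stay between -0.025 and 0.027, and the TUBB points lie at -0.19 to -0.07 and the TUBA4A and TUBB2A points at 0.20 to 0.28.

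The genes whose 8 centred values lay nearest to those of a tubulin gene past the test were named by the root mean square (RMS) difference between profiles. For TUBA4A they were ARHGEF3, TP53INP2 and CLIP1, at 0.046, 0.046 and 0.047 log2 units. For TUBB2A they were ETFB, PTBP3 and FOSL2, at 0.024, 0.026 and 0.027. For TUBB they were GRHPR, TRABD2A and SEC61A1, at 0.011, 0.013 and 0.013. With 2 groups of 4 arrays, a similar group difference alone makes profiles alike.

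The machinery that folds tubulin was lower in part. Of 7 folding cofactor genes, 3 fell and 0 rose, beside 12.5% of all genes that fell, with a list median of -0.09. TBCE, which handles alpha tubulin, had 8.95, 8.90, 8.78 and 8.81 with podofilox, against 9.21, 9.19, 9.13 and 9.19 in control cells, and differed by -0.32 (SE 0.05, adjusted p = 0.00138). TBCB, its partner on alpha tubulin, differed by -0.24 (SE 0.04, adjusted p = 0.0030), and TBCD, which handles beta tubulin, by -0.21 (SE 0.05, adjusted p = 0.0198). TBCC, which triggers release of the finished dimer, ARL2, a small GTPase bound by TBCD, and TBCA, which holds beta tubulin, differed by -0.09, -0.09 and 0.13, and the TBCE-like gene TBCEL by 0.06; these 4 did not pass.

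Of 26 genes for enzymes that modify tubulin and their partners, 4 fell and 1 rose, beside 12.5% and 8.55% of all genes, with a median of -0.017. These counts were near or under the shares over all genes. TTL, the ligase that puts the tyrosine back on the alpha tubulin tail, had 9.15, 9.16, 9.14 and 9.21 with podofilox, against 9.38, 9.47, 9.39 and 9.36 in control cells, and differed by -0.23 (SE 0.04, adjusted p = 0.00372). NICN1 and LRRC49, subunits of the tubulin polyglutamylase complex, differed by -0.27 (SE 0.05, adjusted p = 0.00521) and -0.23 (SE 0.05, adjusted p = 0.0107). AGBL2, which removes residues from the tail, was dim and differed by -0.39 (SE 0.11, adjusted p = 0.0311). TTLL7, a polyglutamylase that acts on beta tubulin, rose by 0.15 (SE 0.04, adjusted p = 0.0293), a call that ended without podofilox replicate 1 or 4 or control replicate 3 or 4. AGTPBP1, a deglutamylase, differed by -0.18 (adjusted p = 0.0522) and did not pass.

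Of 16 measured genes of the autoregulation pathway and its deadenylase, 3 rose and 1 fell, beside 8.55% and 12.5% of all genes, with a median of -0.028. The 4 of 16 called in either direction were near the 21.0% of all genes. TTC5, which recognises the new tubulin chain, had 9.12, 9.08, 9.01 and 9.08 with podofilox, against 9.06, 9.04, 9.21 and 9.16 in control cells, a difference of -0.05 (SE 0.05, adjusted p = 0.545). SCAPER, which links TTC5 to the deadenylase, had 6.91, 6.88, 6.79 and 6.64 with podofilox, against 6.60, 6.74, 6.71 and 6.76 in control cells, a difference of 0.10 (SE 0.07, adjusted p = 0.315). The groups overlapped for both genes. CNOT11, the deadenylase subunit that SCAPER contacts, differed by -0.04 (adjusted p = 0.506). CNOT10, the partner of CNOT11, differed by -0.26 (SE 0.04, adjusted p = 0.00248), and the catalytic subunit CNOT8 rose by 0.19 (SE 0.04, adjusted p = 0.0135). CNOT4, a ubiquitin ligase that joins the complex, rose by 0.29 (SE 0.07, adjusted p = 0.0117), and BTG1, an antiproliferative protein that binds the deadenylase, rose by 0.50 (SE 0.04, adjusted p = 6.26e-05). CNOT6, another catalytic subunit, differed by 0.14 (adjusted p = 0.0936) and did not pass.

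**Figure D5:**
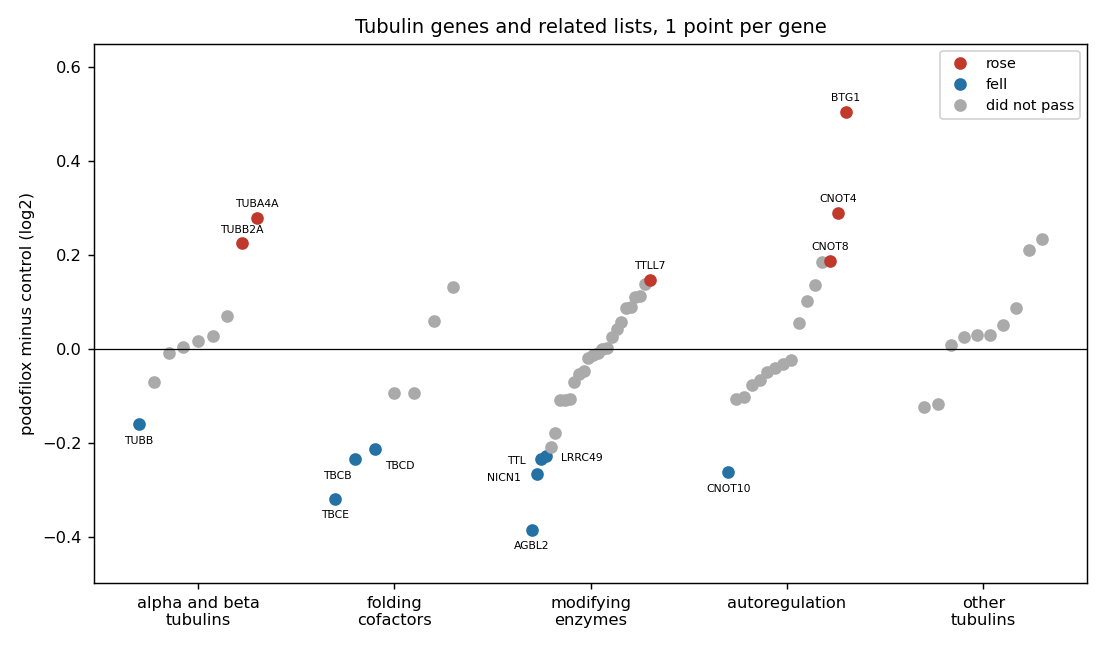
Difference (podofilox minus control, log2) of each gene's brightest probe set, 1 point per gene, for the 9 alpha and beta tubulins, 7 folding cofactors, 26 modifying enzymes and partners, 16 autoregulation genes and 10 other tubulins. Genes past the test are named and coloured (red for rose, blue for fell).

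The other tubulins did not pass the test in either direction. Of 10 measured, 0 rose and 0 fell by limma, beside 8.55% and 12.5% of all genes. At an unadjusted p under 0.05 there were 3, beside 6046 of all 18132 genes. The median difference was 0.029. TUBE1, the epsilon tubulin of centrioles, differed by 0.23 (SE 0.08, adjusted p = 0.0767), TUBB1, the platelet isotype, by 0.21 (adjusted p = 0.125) and TUBG1, the gamma tubulin that nucleates microtubules, by -0.12 (SE 0.04, adjusted p = 0.0773) with groups that did not overlap. TUBD1 differed by -0.12 and TUBG2 by 0.03, and the alpha isotypes TUBA3C, TUBA3D, TUBA3E and TUBAL3 by 0.03, 0.0085, 0.09 and 0.03. TUBB8, the oocyte isotype, was dim and differed by 0.05. The annotation assigns 6 further probe sets to a tubulin gene together with another gene, and these were not used. TUBA1B, TUBA8 and TUBB2B, which lack a single-gene probe set, were not analysed here.

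The keratin genes KRT8, KRT18 and KRT19 and EPCAM were bright on all arrays, with signals of 12.76 to 13.40 with podofilox and 12.65 to 13.29 in control cells. Of the 8 measured genes of this epithelial list 2 rose, TFF1, a mucosal peptide of the stomach, by 1.08 (adjusted p = 1.87e-05) and CLDN4, a tight junction protein, by 0.50 (adjusted p = 3.36e-05), and 0 fell (8.55% and 12.5% of all genes). The stomach genes GKN1 and CLDN18 were dim, at 3.74 to 4.96 with podofilox and 3.92 to 5.26 in control cells. Because TUBB2A, TUBB3 and TUBB4A are neuronal isotypes, 12 neuron genes were read beside them. Of these, 2 rose (MAP2 by 0.24 and NEFL by 0.28) and 0 fell, beside 8.55% and 12.5% of all genes. Called in either direction were 2 of 12, beside 21.0% of all genes. Counts this small are not read as a property of the list. All 12 differences were above 0, at 0.00068 to 0.28, beside 9460 of all 18132 genes above 0. The mean over the list was 5.60 to 5.64 with podofilox and 5.45 to 5.57 in control cells, below the array medians. GAP43, SNAP25, STMN2 and MAP2 averaged above those medians in both groups, with GAP43 the brightest at 8.27 and 8.24. The part of these genes in the rise of TUBB2A was not tested. Of 6 fibroblast genes 0 passed by limma, with 2 at an unadjusted p under 0.05, beside 6046 of all 18132 genes. Their mean was 4.61 to 4.74 with podofilox and 4.53 to 4.71 in control cells. Of 4 immune genes 1 rose, CD68, by 0.28 (adjusted p = 0.0118), and 0 fell (mean 5.20 to 5.31 and 5.11 to 5.25). Of 4 endothelial genes 1 fell, CDH5, with a difference of -0.44 (adjusted p = 0.0209), and 0 rose (mean 5.95 to 6.13 and 5.90 to 6.32). These counts stand beside 8.55% of all genes that rose and 12.5% that fell. The manufacturer's GAPDH and ACTB probe sets served as a sign of RNA quality. Their 3′ minus 5′ difference was -0.13 ± 0.02 with podofilox and -0.11 ± 0.02 in control cells for GAPDH (two-sided exact permutation p = 0.171) and 0.17 ± 0.07 and 0.15 ± 0.03 for ACTB (SD, n = 4 each; exact permutation p = 0.686). These very bright probe sets were themselves slightly lower with podofilox, by -0.07 to -0.02 over the 6 of them, and 4 of the 6 reached the smallest exact permutation p that 70 arrangements allow, 0.0286 (0.0571 when adjusted over the 8 comparisons). The part of this shift in the TUBB difference was not tested.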

How the data were processed

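The deposited table holds 1 log2 expression value per probe set and array for 49395 probe sets. Per the submitters' processing notes the authors used RMA, which corrects background, normalizes by quantiles and summarises probes into log2 values; its software is not given in the sources used here. Values from 2.64 to 15.0 fit a log2 scale. The platform annotation gave 44988 probe sets of 1 gene, 1832 of several and 2473 with none, apart from 102 manufacturer controls. All 9 member genes matched RefSeq by Entrez identifier with 0 changed symbols. Differences were fitted with R 4.3.3 and limma 3.58.1 (lmFit, then eBayes) on all 8 arrays with no covariate or filter, once over 18132 genes, each by its brightest probe set, and once over all single-gene probe sets, with Benjamini-Hochberg adjustment over each table; the script was tested on simulated data. The number of arrays limits the precision. Figures were drawn with matplotlib 3.10.9.

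The members and lists were chosen with earlier results of these data known. All members are named with every probe set, and so are other tubulins, TTC5 and SCAPER, up to 6 genes with the smallest p of each related list, and the 3 nearest profiles (mean of at least 5) of each member past the test; TBCC, ARL2, TBCA, TBCEL and CNOT11 beyond these, EPCAM and TOB1 for their array pattern, and the called genes of the marker lists, were picked after their values were seen. The alternatives tried were other representatives, filters, normalizations, variance models, blocks, thresholds and each array left out. The labels name no pairing by replicate number. Deviations from the group means correlated at -0.24 to 0.09 for same-numbered arrays and at -0.15 to 0.24 for the others. So few values cannot settle whether the samples were paired. RefSeq promoter windows were found for all 9 genes.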

Additional observations from a re-analysis of the deposited data

Results flagged for a closer look

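Among 52 groups of 4 arrays (26 probe sets in 2 groups), 5 had 1 array far from the others, at a gap to the nearest array of over 0.829 of the group's range, where chance gives about 1 in 20. Control replicate 2 stood low on a pair of TUBB4A probe sets, at 5.80 (nearest 6.03) and 5.44 (nearest 5.70), and high on the TUBB probe set at 12.93 (nearest 12.88). Podofilox replicate 3 stood high on the TUBB probe set of the _s_at kind, at 11.73 (nearest 11.62). Podofilox replicate 1 stood high on the dimmest TUBB6 probe set, at 4.56 (nearest 4.14).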

How the results depend on the processing

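The 9 gene differences and 26 probe set differences were refitted under up to 22 settings each. Of 728 such values 661 kept their side of the threshold, 45 lost a call, 22 gained one, and 0 called values changed sign. Most of these values belong to results that did not pass as reported and so had no call to lose. TUBB lost its call over genes in 9 of 21 settings, TUBA4A in 2 of 22 and TUBB2A in 2 of 21. In the test over probe sets the brightest TUBB probe set lost its call in 12 of 21. Of the 9 genes, 2 rose and 1 fell as reported. The number that rose was 1 without _x_at and _s_at probe sets or at an adjusted p under 0.01, and 0 within arrays numbered 1 and 2. The number that fell was 0 in these settings and with the replicate number as a block (adjusted p = 0.0907 for TUBB), and 0 to 1 on leaving out an array. TUBB and TUBB2A have only _x_at and _s_at probe sets. Without these kinds both genes were absent from the fit and could not be called. Of the 26 probe sets, 3 rose and 4 fell. The number that rose was 5 above the median signal, with quantile normalization again and with cyclic loess (a setting chosen after seeing the data), 6 with array weights, 1 within arrays 1 and 2 and 1 at an adjusted p under 0.01. The number that fell was 1 with the replicate block, 0 within arrays 1 and 2, 2 within arrays 3 and 4, 0 at an adjusted p under 0.01, and 2 to 4 on leaving out an array. Over all settings it ran from 0 to 6. The dimmer TUBA1C and the dimmest TUBB probe set also fell with the variance trend and with a plain test per probe set.

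In the related lists, the autoregulation genes that rose numbered 1 at an adjusted p under 0.01, and those that fell 3 with each gene's probe sets averaged and 2 within arrays 3 and 4. Of the folding cofactors 1 rose within arrays 3 and 4. Over all settings 1 to 4 autoregulation genes rose and 2 to 6 modifying enzymes fell. Of the modifying enzymes 0 rose above the median signal, with cyclic loess, with the variance trend, with the replicate block, within either pair of array numbers and at an adjusted p under 0.01 (0 to 1 on leaving out an array), and 2 fell within arrays 3 and 4 and at an adjusted p under 0.01. Of the other tubulins 1 rose above the median signal, with the variance trend, with array weights and within arrays 3 and 4 (0 to 1 on leaving out an array), and 1 fell above the median signal, with the variance trend and with a plain test per gene. For comparison, over all genes 2406 rose with array weights and 772 at an adjusted p under 0.01, and 1268 fell within arrays 1 and 2 and 1231 at an adjusted p under 0.01. Over all single-gene probe sets these counts were 5534, 1673, 2592 and 2320. A stricter threshold makes fewer calls by construction. A gene absent from a setting cannot be called there, as TTLL7 above the median signal and TUBB and TUBB2A without _x_at and _s_at probe sets. The cause of the other changes was not tested. Groups of 2 arrays and dim probe sets limit what can be read.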
